A study of Canis lupus familiaris with 33 samples.

Results

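PIGR, AGR2, SPDEF, LYPD2, ADGRF1, TSPAN8 and LIPG, genes of secretion and of the cell surface, were followed across normal and malignant canine bladder. They are 7 of the 25096 genes in the analysed table. The genes were chosen by name, as genes with large rises in tumors and secretory genes related to these. The tumor minus normal values of the 7 genes were therefore part of the choice, and they are given here as a description without a test. The choice had no numeric limit, so no gene lies just inside or just outside it. How the genes vary together among tumors was tested, though genes and tests were chosen with earlier results of these data known.

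RNA was sequenced from 29 canine invasive urothelial carcinomas (iUC) and 4 samples of normal canine bladder mucosa. The tumors were high-grade, untreated when sampled by cystoscopy, and each came from a different dog, while the normal mucosa was dissected from bladders of dogs euthanized for other conditions. The labels give neither group a treatment or a genetic change and call the normals normal urothelial cells, and the ages of the dogs were not used here. Every value is a log2 of a normalized value (TMM scaling) from which the gene's median across the 33 samples was subtracted, so a value of 1 is a level 2 times that median and levels of different genes cannot be compared.

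Glandular and barrier epithelia make proteins for export in the endoplasmic reticulum, fold them with disulfide isomerases, and set mucins, antibodies and lipid-linked proteins at the surface that faces the lumen. Polymeric IgA made by plasma cells reaches that lumen only by transport through the epithelial cell. Normal urothelium is a barrier with a plaque of uroplakins and is not a mucus-secreting epithelium, and carcinomas of several organs are known to make secretory and surface proteins of this kind.

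PIGR, AGR2, LYPD2, ADGRF1 and LIPG, 5 of the 7 genes, were higher in 29 of 29 tumors than in the highest normal. The same held for 7.63% of the 24471 genes tested in the series, a share that is given for scale since the genes were chosen for this rise. The other two do not bear out the description of genes gained in tumors. For SPDEF the mean difference was 0.09 (-0.22 without normal D and -0.20 with DESeq scaling) and for TSPAN8 it was 1.20 on the log2 scale, and their normals lay within the spread of the tumors.

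**Figure D1:**
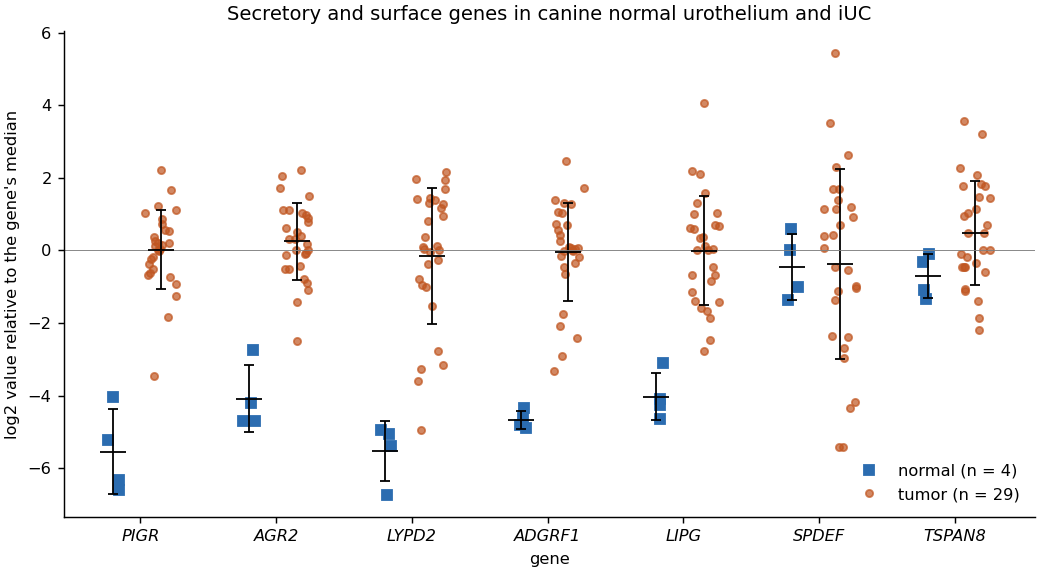
Log2 values relative to the median of each gene (vertical axis) in 4 normals (squares) and 29 tumors (circles) for the 7 genes, with the mean and SD of each group in black. PIGR, AGR2, LYPD2, ADGRF1 and LIPG separate the groups, while SPDEF and TSPAN8 overlap and SPDEF has the widest spread among tumors (SD 2.62).

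PIGR (ENSCAFG00000011496), the polymeric immunoglobulin receptor, carries polymeric IgA and IgM across epithelial cells and is cleaved to release secretory component. Its value (log2 relative to the gene median) was -4.04 in normal A, -6.61 in normal B, -5.23 in normal C and -6.33 in normal D. In the tumors it ran from -3.45 in tumor 2, through a median of 0.13, to 2.22 in tumor Sp. The groups did not overlap, and tumor 2 stood apart from the other tumors, of which the lowest was tumor Ja at -1.83. The mean difference was 5.57 on the log2 scale (SE 0.58), or 47.5-fold, and 5.27 in the DESeq-normalized table.

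AGR2 (ENSCAFG00000002437) is a disulfide isomerase of the endoplasmic reticulum that is needed for the folding of secreted mucins. The normals had log2 values of -2.75 (A), -4.20 (B), -4.70 (C) and -4.70 (D). The tumors ran from -2.51 in tumor 20 to 2.22 in tumor Sn, with a median of 0.31. Tumor 20 was only 0.25 above normal A, so the separation of the groups was narrow at that point, while the second lowest tumor was at -1.43. The mean difference was 4.34 (SE 0.54), or 20.2-fold.

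SPDEF (ENSCAFG00000001227), an ETS transcription factor that drives goblet and other secretory cells and acts upstream of AGR2 in several epithelia, did not follow them. The normals had values of 0.00 (A), 0.58 (B), -1.02 (C) and -1.38 (D). The tumors spanned 10.85 log2 units, from -5.42 in tumors 20 and JE, which were at the lowest value the table can give, through a median of 0.07, to 5.43 in tumor 12. Of the 29 tumors, 12 lay above all normals, 8 below all normals and 9 between them. The SD over tumors, 2.62, was larger than in 99.4% of the genes tested. The gene was weakly covered in most libraries. Its height above the lowest value corresponds to a median of 9.85 read pairs in the normals and 23 in the tumors, with 860 in the highest tumor, as read from the size of 1 read pair in each sample. Low SPDEF values are therefore imprecise, and a value at the lowest level does not show that the transcript is absent.

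LYPD2 (ENSCAFG00000001281) encodes a protein with the 3-finger fold of the LY6/uPAR family, whose members are mostly held on the cell surface by a lipid anchor. The normals had values of -4.95 (A), -6.73 (B), -5.05 (C) and -5.39 (D). The tumors reached 2.17 in tumor 1 with a median of 0.08, but the lowest, tumor Ab, was at -4.95 and exceeded normal A by less than 0.01. LYPD2 thus had no gap between the groups, and its tumor SD of 1.87 was the largest of the 5 genes that were higher in every tumor. The mean difference was 5.37 (SE 0.94), or 41.4-fold.

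ADGRF1 (ENSCAFG00000002068) is an adhesion G protein-coupled receptor, known earlier as GPR110. The normals were close together, at -4.33 (A), -4.61 (B), -4.82 (C) and -4.88 (D). The tumors ran from -3.32 in tumor 20, through a median of 0.06, to 2.46 in tumor Ja. The lowest tumor was 1.01 above the highest normal, the widest gap of the 7 genes. The mean difference was 4.62 (SE 0.68), or 24.6-fold.

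TSPAN8 (ENSCAFG00000000450) is a tetraspanin, a membrane protein that gathers integrins and adhesion molecules into complexes and enters exosomes. The normals had values of -0.32 (A), -1.10 (B), -0.09 (C) and -1.35 (D). The tumors ran from -2.18 in tumor 11, through 0.47, to 3.56 in tumor JE. Of these, 17 lay above all normals, 3 below all of them, and 9 within their range. The mean difference was 1.20 (SE 0.71), above that of 92.4% of the genes tested, and 0.90 in the DESeq-normalized table.

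LIPG (ENSCAFG00000019036), the endothelial lipase, is secreted and cleaves phospholipids of high-density lipoprotein. The normals were at -3.11 (A), -4.09 (B), -4.64 (C) and -4.27 (D). The tumors ran from -2.77 in tumor 20, through 0.05, to 4.05 in tumor 15, which stood well above the next tumor at 2.18. The lowest tumor was 0.34 above the highest normal. The mean difference was 4.02 (SE 0.75), or 16.2-fold.

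Normal A was the highest normal for each of the 5 separated genes. It was also the normal with the lowest smooth muscle marker score (mean log2 value of 7 genes, 4.50 against 5.50, 5.59 and 6.34 in B, C and D). At the other end, tumor 20 was among the 3 lowest tumors for 4 of the 7 genes and was the lowest for AGR2, ADGRF1 and LIPG, with SPDEF at the lowest value. Tumor 12 was among the 3 highest for 4 genes and tumor Mis for 3. The urothelium score of tumor 20 was -0.05, where the tumor median was 0.00, and its part in these low values was not tested.

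The normals differed from the tumors in markers of some other cell types. In the endothelium, T cell, B and plasma cell, myeloid and neutrophil scores the normals lay within the range of the tumors. Of the tested endothelium and T cell genes, 0 of 6 and 0 of 8 were called. The smooth muscle score ran from 4.50 to 6.34 in the normals and from -1.06 to 2.84 in the tumors, and all 7 tested genes of that list were lower in tumors, with ACTG2 at -7.05, TPM2 at -6.28 and MYH11 at -6.13. The Schwann cell score was 2.84 to 3.14 in the normals against -1.13 to 1.85 (of 5 tested genes 3 lower and 1, ERBB3, higher). The fibroblast score was 2.12 to 2.81 against -2.29 to 2.17. Scores of tissues that bladder mucosa should not hold were shifted the same way, at 2.05 to 2.97 against -1.05 to 2.06 for intestine (28 of 29 tumors below all normals) and 1.32 to 2.27 against -1.13 to 1.29 for prostate (29 of 29). Of 5 tested genes in each of these lists 4 were lower. HOXB13 of the prostate list was higher by 1.75, with 26 of 29 tumors above all normals. ISX, KLK2 and CDX2 were at the lowest value in 28, 24 and 22 tumors, and HOXB13, ACTG2, TPM2 and MYH11 in 0. Of 12 tested urothelium genes 8 were higher in tumors, among them CLDN7 (2.37), EPCAM (2.18), CDH1 (2.15) and UPK3A (1.85), while UPK1A (0.03) and UPK2 (0.04) were not called and KRT20 was lower (-3.75). The urothelium score was above all normals in 27 of 29 tumors. In such bulk samples fewer cells of a type and less RNA per cell cannot be told apart, and the part of the cell mixture in the differences of the 7 genes was not tested.

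The libraries also differed in how many low genes they recorded. In a normal 755 to 1019 genes were at the shared lowest value, and in a tumor 3699 to 8175. Olfactory receptor genes, which bladder is not known to use, were above the lowest value for 99.3% to 99.8% of 456 genes in the normals and for 3.95% to 91.7% in the tumors, with a tumor median of 18.9%. Across all tested genes the median difference was -0.84 with TMM and -1.11 with DESeq scaling, but it was -0.01 across the 18418 genes with a median above their lowest value. The part of this difference in the calls of the related genes below was not tested.

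Related genes were compared between tumors and normals with limma (Benjamini-Hochberg adjusted p of at most 0.05 and at least a 2-fold change). Of 199 tested genes in 10 lists of relatives and partners of the 7 genes, 63 were higher in tumors (31.7%, against 10.7% of all tested genes) and 47 lower (23.6%, against 45.8%). In the DESeq table the same lists gave 47 higher and 53 lower, where 5.62% and 49.1% of all genes were called, so the share of calls that were higher went from 57.3% to 47.0%. Of the 47 lower genes, 24 had at least 1 tumor at the lowest value and 9 had at least 15, against 1 and 0 of the 63 higher genes. A gene higher in tumors can hardly have many tumors at the lowest value, so these counts describe the lower genes and do not compare the sets.

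**Figure D2:**
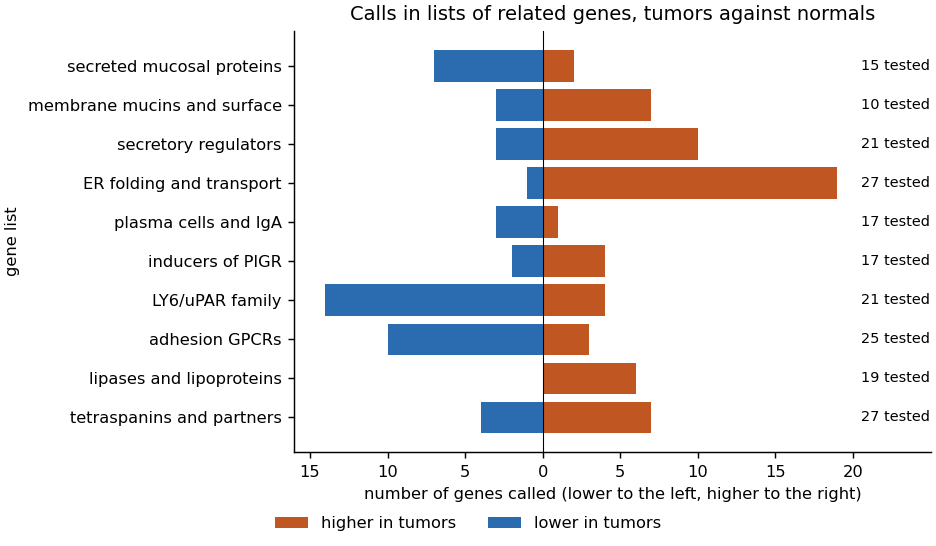
Number of genes called higher (right of 0) or lower (left of 0) in 29 tumors against 4 normals by limma, for 10 lists of genes related to the 7, with the number tested at the right. Folding genes of the endoplasmic reticulum were mostly higher (19 of 27), and the LY6/uPAR family mostly lower (14 of 21).

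The genes of protein folding and transport in the endoplasmic reticulum, where AGR2 acts, were mostly higher. Of 27 tested, 19 rose, 1 fell and 7 were not called, with a median difference of 1.33, and 14 had every tumor above every normal. ERN2, the epithelial form of the IRE1 stress sensor, rose by 3.27 on the log2 scale (SE 0.58, adjusted p = 7.53e-06, 28 of 29 tumors above all normals). HSPA5 and HSP90B1, the main chaperones of this compartment, rose by 2.37 and 2.27, and each was above all normals in 29 of 29 tumors. CDNF, a secreted neurotrophic factor resident there, was the gene that fell (-2.87).

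The transcription factors of secretory and urothelial cells gave 10 higher, 3 lower and 8 not called of 21, with a median of 1.04. SOX9 (2.50), ELF3 (2.27), an ETS factor of epithelia like SPDEF, and KLF5 (1.94) were higher in 29 of 29 tumors. FOXA3 (-2.84), CREB3L1 (-2.41), which drives the secretory pathway, and GFI1 (-2.34), which acts with SPDEF in goblet and Paneth cells, were lower. FOXA3 was at the lowest value in 16 of 29 tumors and reached 8.32 in the highest, while CREB3L1 and GFI1 were at it in 0. With DESeq scaling, 6 of these factors were higher and 3 lower.

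Of 15 tested secreted products of mucosa, 2 were higher, 7 lower and 6 not called, with a median of -1.69. These shares are near the 10.7% and 45.8% of all tested genes. CLU, a secreted chaperone, was higher by 2.65 (adjusted p = 0.00134), and SPINK4, a goblet cell peptide, by 1.74 (adjusted p = 0.044), a call that was lost without normal B, C or D and in the DESeq table. LPO (-4.28), BPIFA1 (-4.04) and BPIFB1 (-3.20), defence proteins of airway and salivary secretions, were lower, and 10, 11 and 6 of the 29 tumors were at the lowest value for them.

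Membrane mucins and other apical proteins gave 7 higher and 3 lower of 10, with a median of 1.60. MUC1, the widespread membrane mucin of glandular epithelia, rose by 3.67 (SE 0.38, adjusted p = 2.28e-10) and lay above all normals in 29 of 29 tumors. MAL (2.45), a protein of apical transport, and EPCAM (2.18) did the same. MUC15 (-4.42), MUC21 (-4.24, at the lowest value in 21 tumors) and ANPEP (-1.30, adjusted p = 0.0422) were lower, and the call of ANPEP was lost when any 1 normal was left out.

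For the cargo of PIGR, 1 of 17 genes of plasma cells and IgA was higher, 3 were lower and 13 were not called, with a median of -0.29. JCHAIN, the chain that joins polymeric IgA for its receptor, differed by 1.61 (SE 1.15, adjusted p = 0.207), and 19 tumors exceeded all normals. PRDM1, the plasma cell regulator, was higher (1.46, adjusted p = 0.00926), but not without normal C (adjusted p = 0.0546). FCRL5 (-3.43), CCR10 (-3.03) and MS4A1 (-2.96) were lower, the last of these not when any 1 normal was left out. Of 17 inducers of PIGR and their receptors, 4 were higher, 2 lower and 11 not called. IRF1 (1.94), IL4R (1.50) and STAT6 (1.38) were higher, whereas the cytokines IFNG (-4.95) and IL4 (-3.46) were lower and at the lowest value in 14 and 11 tumors.

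Of 21 other tested genes of the LY6/uPAR family of LYPD2, 4 were higher, 14 lower and 3 not called, where 10.7% and 45.8% of all tested genes were higher and lower. The median was -1.72, and the counts were the same in the DESeq table. LY6E (3.38), PSCA (3.30) and SLURP1 (2.79) had the largest rises, but for none of them was every tumor above every normal. LY6G6D (-5.37), LYPD8 (-5.27) and TEX101 (-3.77) fell the most, with 23, 15 and 15 tumors at the lowest value. Of 25 other adhesion G protein-coupled receptors 3 were higher, 10 lower and 12 not called. These counts are near the 10.7% and 45.8% of all tested genes. ADGRL4, an endothelial receptor, rose by 3.36, and ADGRB3 (-7.21), ADGRF2 (-4.40), a gene close to ADGRF1, and ADGRB1 (-3.68) fell. The 3 that fell had 0, 10 and 12 tumors at the lowest value. CELSR2 (1.03) and ADGRG1 (1.03) just passed the 2-fold limit. Neither passed with DESeq scaling, nor did CELSR2 without normal A or ADGRG1 without normal D.

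Around LIPG, 6 of 19 lipase and lipoprotein genes were higher and 13 were not called by limma, with a median of 0.36. The count lower was 0, with 2 lower at an unadjusted p under 0.05. APOC1 rose by 3.00 and FURIN, a protease that cleaves lipases of this family, by 1.46. With DESeq scaling, 4 were higher and 3 lower. Of 27 tetraspanins and their partners 7 were higher, 4 lower and 16 not called, and the median was 0.12. CLDN7 (2.37), a partner of EPCAM and tetraspanins, TSPAN17 (1.59) and CD63 (1.49) rose, and TSPAN2 (-2.75), TSPAN33 (-2.04) and PRPH2 (-1.73) fell.

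Whether the 7 genes form 1 program was then asked among the 29 tumors alone. Spearman's rho was computed for the 21 pairs, with two-sided permutation p-values from 100000 resamples and Benjamini-Hochberg adjustment over the pairs. Values of rho ran from -0.24 to 0.49, with a median of 0.12, and 16 pairs were positive. Of the 21 pairs 0 passed an adjusted p of 0.05 by rho or by Pearson's r, while 3 by rho and 2 by r had an unadjusted p under 0.05. A correlation that misses this limit in 29 tumors may still be present.

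**Figure D3:**
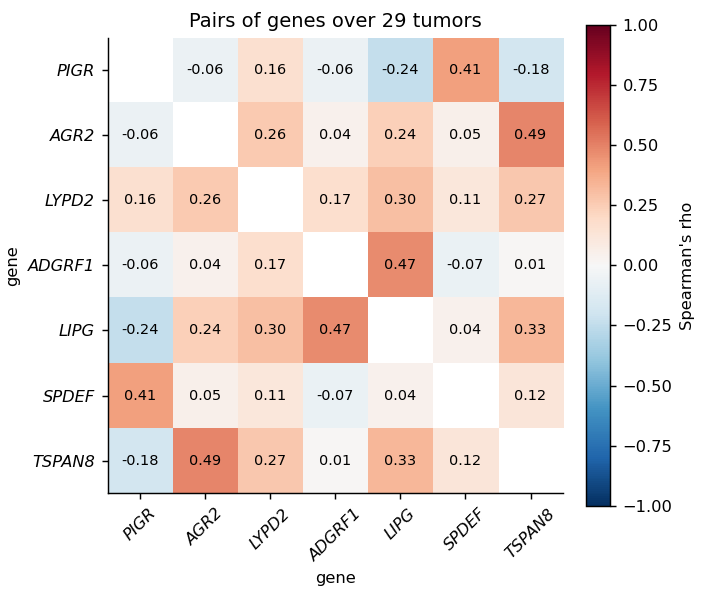
Spearman's rho for each pair of the 7 genes over 29 tumors, with blue for negative and red for positive values on a scale from -1 to 1. The highest values are 0.49 (AGR2 and TSPAN8), 0.47 (ADGRF1 and LIPG) and 0.41 (PIGR and SPDEF), and none passed the adjusted threshold.

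The highest pair was AGR2 with TSPAN8 (rho = 0.49, permutation p = 0.00705, adjusted p = 0.115, and r = 0.43, permutation p = 0.0196, adjusted p = 0.206). It had an r of 0.40 without the 2 tumors farthest from the AGR2 median. The titles of 18 tumors start with a number and those of 11 with a letter, and rho was 0.46 and 0.55 within them. ADGRF1 came next with LIPG (rho = 0.47, permutation p = 0.011, adjusted p = 0.115; r = 0.45, permutation p = 0.0135, adjusted p = 0.206). Without the 2 farthest tumors this pair had an r of 0.22 and a rho of 0.34, without tumor 20 a rho of 0.41, and within the title groups a rho of 0.50 and 0.51.

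SPDEF was most like PIGR (rho = 0.41, permutation p = 0.029, adjusted p = 0.203, and r = 0.35, permutation p = 0.0615, adjusted p = 0.258). Without the 2 farthest tumors r was 0.58, and within the title groups rho was 0.57 and 0.29. Its rho with AGR2 was 0.05 (adjusted p = 0.883) and with TSPAN8 0.12 (adjusted p = 0.852). PIGR and AGR2, both higher in every tumor, had a rho of -0.06 (adjusted p = 0.883).

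The 7 genes were set against 26 partner genes each, 182 pairs in all. None passed by rho, with 19 at an unadjusted p under 0.05, and 3 passed by Pearson's r, with 25 under 0.05. PIGR had a positive relation with MUC1 (r = 0.61, permutation p = 0.00031, adjusted p = 0.0282, and rho = 0.51, permutation p = 0.00471, adjusted p = 0.238). Without the 2 farthest tumors the r of this pair was 0.50. ADGRF1 had a negative one with LYPD3 (r = -0.66, permutation p = 0.00019, adjusted p = 0.0282, and rho = -0.47, permutation p = 0.012, adjusted p = 0.273) and with TSPAN1 (r = -0.59, permutation p = 0.00081, adjusted p = 0.0491, and rho = -0.48, permutation p = 0.00914, adjusted p = 0.238). These had an r of -0.55 and -0.56 without the farthest tumors.

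No other partner pair passed by r. MUC1 also had the highest rho with LYPD2 (0.49, adjusted p = 0.238), and LPL, the lipoprotein lipase, the lowest with PIGR (-0.51, adjusted p = 0.238) and with SPDEF (-0.39, adjusted p = 0.386). UPK2, a uroplakin of the surface plaque, had the lowest rho with AGR2 (-0.39, adjusted p = 0.386) and TSPAN8 (-0.42, adjusted p = 0.366), whereas its rho with PIGR was 0.38 (adjusted p = 0.386). LCN2, a siderophore-binding protein of inflamed epithelia, was highest for ADGRF1 (0.43, adjusted p = 0.357).

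Among tumors the 7 genes did not follow the marker scores or the measures of detection beyond the threshold. In 91 comparisons with 11 marker scores, the number of genes at the lowest value and the share of olfactory receptor genes above it, 0 passed by rho or r, and 3 by each had an unadjusted p under 0.05. Those 3 by rho were LYPD2 with the myeloid score (rho = -0.45, permutation p = 0.0163, adjusted p = 0.904, and r = -0.29, permutation p = 0.123, adjusted p = 0.948), ADGRF1 with the intestine score (rho = 0.43, permutation p = 0.0199, adjusted p = 0.904, and r = 0.44, permutation p = 0.0181, adjusted p = 0.629) and ADGRF1 with the myeloid score (rho = -0.38, permutation p = 0.0412, adjusted p = 0.929, and r = -0.43, permutation p = 0.0207, adjusted p = 0.629). With the smooth muscle score rho ran from -0.26 for PIGR to 0.17 for LIPG, and with the share of olfactory receptor genes from -0.16 for ADGRF1 to 0.23 for AGR2. Of the luminal and basal subtypes of iUC there were 2 measures, the first principal component of 639 listed subtype genes and a luminal (32 genes) minus basal (11 genes) score. Of 14 comparisons with them 0 passed, with 1 by rho and 2 by r at an unadjusted p under 0.05. TSPAN8 had a rho of -0.42 with the luminal minus basal score (permutation p = 0.0228, adjusted p = 0.31, and r = -0.46, permutation p = 0.0116, adjusted p = 0.163), and PIGR had 0.35 (permutation p = 0.0664, adjusted p = 0.31). Within the tumors titled by number and by letter, rho was -0.69 and -0.10 for TSPAN8 and 0.06 and 0.70 for PIGR, so neither value was alike in both groups.

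Each gene was then compared with its neighbours on the chromosome, up to 6 protein-coding genes on each side by the order of the RefSeq table, a comparison added after the data had been seen. Of 53 neighbours that were tested, 9 were higher in tumors and 14 lower, where 10.7% and 45.8% of all tested genes were. Over the 29 tumors 2 of the 53 pairs passed by rho and by r, with 8 and 10 at an unadjusted p under 0.05. Both were pairs of directly adjacent genes.

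PIGR lies next to FCAMR, a receptor for the Fc part of IgA and IgM, and the pair rose and fell together over the tumors (rho = 0.74, permutation p = 3e-05, adjusted p = 0.000795, and r = 0.76, permutation p = 1e-05, the smallest the resamples can give, adjusted p = 0.000265). Without the 2 farthest tumors r was 0.71, and within the title groups rho was 0.60 and 0.87. Unlike PIGR, FCAMR was not higher in tumors than in normals, with a difference of -0.93 (SE 0.81, adjusted p = 0.302) and 3 of 29 tumors above all normals. FCMR, the neighbour on the other side, differed by 0.13 (adjusted p = 0.853) and had a rho of -0.26 with PIGR (permutation p = 0.17, adjusted p = 0.441). IL19, IL20 and IL24 beyond it were lower (-3.84, -4.24 and -1.90). Tumor 2, the lowest tumor for PIGR, was also the lowest for FCAMR (-4.00).

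LYPD2 lies next to SLURP1, a secreted protein of the same family, and these had the closest relation (rho = 0.86, permutation p = 1e-05, adjusted p = 0.00053, and r = 0.89, permutation p = 1e-05, adjusted p = 0.000265). The r was 0.84 without the 2 farthest tumors, and rho was 0.91 and 0.79 within the title groups. Among the tumors titled by a letter, which are fewer, no neighbour pair passed the adjusted threshold. SLURP1 was at the lowest value in 3 tumors. PSCA, another gene of the same cluster, had a rho of 0.48 with LYPD2 (permutation p = 0.00905, adjusted p = 0.125). For PIGR and FCAMR as for LYPD2 and SLURP1, whether the counting used strand is not given in the sources used here, so that reads running from 1 gene into the next cannot be told apart from expression of both.

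**Figure D4:**
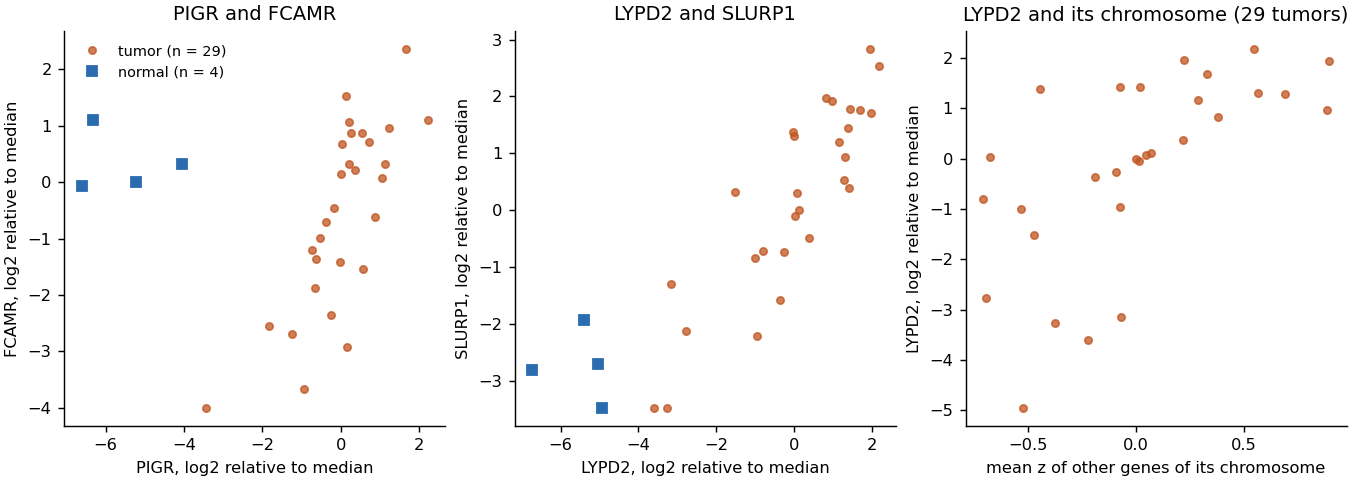
Log2 values relative to the gene median in 29 tumors (circles) and 4 normals (squares) for PIGR and FCAMR (left) and LYPD2 and SLURP1 (middle), and LYPD2 against the mean z of other genes on its chromosome in the tumors (right). Over the tumors rho is 0.74, 0.86 and 0.72, and the normals, low in PIGR, lie within the tumors' range of FCAMR.

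LYPD2 also followed its chromosome. This comparison and the shares of genes by chromosome were, like that with the neighbours, added after the data had been seen. They are therefore no independent test of the pattern. The level of LYPD2 was compared with the mean z of 255 other genes of that chromosome, leaving out the 6 neighbours on each side (rho = 0.72, permutation p = 3e-05, adjusted p = 0.00021 over 7 genes, and r = 0.64, permutation p = 0.0003, adjusted p = 0.0021). The value of rho was 0.62 and 0.91 within the title groups, and r was 0.64 without the 2 farthest tumors. The other 6 genes had a rho from -0.11 to 0.24 with their own chromosomes, and 0 had an unadjusted p under 0.05 by rho or r. Of the 100 genes most like LYPD2, 94 had a place in the RefSeq table and 65 of these (69.1%) were on its chromosome, which holds 2.50% of all placed genes. For the other 6 genes that share ran from 1.08% for SPDEF to 10.5% for PIGR, whose chromosome holds 4.35%.

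**Figure D5:**
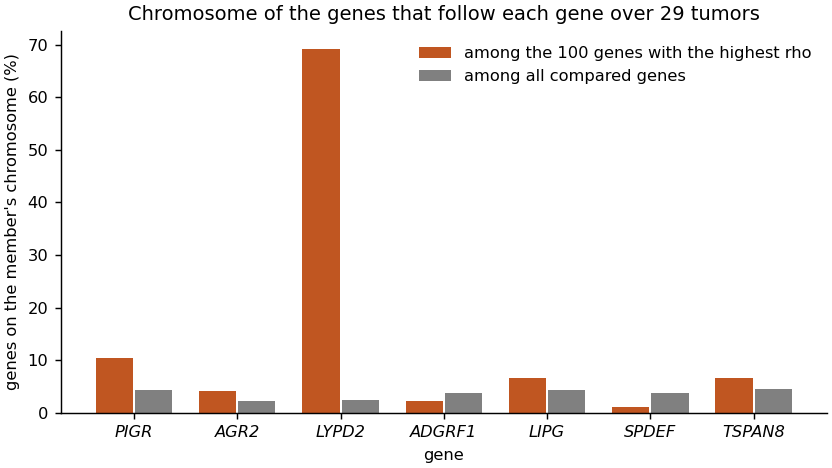
Percentage of genes on the same chromosome as each of the 7 genes, among its 100 genes with the highest rho over 29 tumors (orange) and among all compared genes (grey). LYPD2 stands apart at 69.1% against 2.50%, and the other 6 genes lie between 1.08% and 10.5%.

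The median tumor minus normal difference over the 255 genes of that chromosome was 0.77, against the 5.37 of LYPD2. Of these genes 103 (40.4%) were higher in tumors, and of those on the chromosomes of the other 6 genes 11.5% to 26.2% were. After the chromosome mean was regressed out of both genes, rho between LYPD2 and SLURP1 was 0.74, with MTBP, an MDM2-binding protein, 0.61, with DENND3 0.45, and with PSCA 0.25. Regressing out the mean of its own chromosome left PIGR and FCAMR at 0.75. DNA copy number was not measured in these samples.

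The genes most like each of the 7 were ranked by rho over the 29 tumors among 11024 genes, as a description. For PIGR they were MFAP2 (0.75), FCAMR (0.74) and GAK (0.70), and for AGR2 PTGES, a prostaglandin E synthase (0.63), FAM177A1 (0.63) and SHOX2 (0.62). For LYPD2 they were SLURP1 (0.86), DENND3 (0.81) and MTBP (0.74), and DENND3 was itself higher in tumors by 1.99. SPDEF was most like C9orf72 (0.71), CD82 (0.66), a tetraspanin, and IFNLR1 (0.65). ADGRF1 was most like RRP9 (0.69), CD320 (0.68) and FADS6 (0.61).

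LIPG was most like FLRT2 (0.69), CGRRF1 (0.68) and DUSP4 (0.68), a phosphatase that acts on MAP kinases and was higher in tumors by 3.96 (adjusted p = 1.64e-06). TSPAN8 was most like FAM83A (0.77), and RFX2 was also close to it (0.68). FAM83A differed by -0.22 between tumors and normals (adjusted p = 0.866), so the closest gene to TSPAN8 among tumors was, like TSPAN8 itself, not separated from the normals.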

How the data were processed

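Ribosomal RNA was removed, and the authors sequenced paired-end reads, aligned them to CanFam 3.1 with COBWeb in Strand NGS, and deposited log2 values, normalized by TMM or by DESeq, minus the median of each gene over 33 samples. Depth per sample is unknown, since the values are not counts. The lowest value shared by at least 2 samples was read as a normalized value of 1. In each analysed table the last line is incomplete and was not used.

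Genes above that value in at least 4 samples were tested with limma 3.58.1 in R 4.3.3 (mean-variance trend, Benjamini-Hochberg adjustment over all tested genes). A simulation of tumors against normals on 24471 genes recovered 184 of the 200 genes given a log2 change of 3 in either direction, with 9 unchanged genes called. It drew independent Gaussian noise with each gene's tumor SD for both groups. It had no lowest value and no difference in detection, so the 9 calls do not measure the error in these libraries. Correlations used Python 3.11.15 with scipy 1.17.1, numpy 2.4.6 and pandas 2.3.3, with permutation p-values; figures used matplotlib 3.10.9. Members, lists and tests were chosen with earlier results of these data known. Genes named are the 7, the 3 nearest genes of each, the 3 largest rises and falls among the calls of each list, list genes that are also partners, partner pairs past the threshold, and the partners with the highest and lowest rho. Genes that meet this rule but are not named are not reported here. Other genes of the urothelium list, JCHAIN and the neighbouring genes were named after their values were seen. Of 12005 symbols given once, 11042 matched a protein-coding gene of the RefSeq table (assembly UU_Cfam_GSD_1.0), used for names, gene order and chromosome membership only. The DESeq-normalized table deposited by the authors, other filters, no trend, each normal left out, title groups and regressed scores were alternatives.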

Additional observations from a re-analysis of the deposited data

Results flagged for a closer look

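Among 82 named genes, 6 had a normal sample far from the other three, by the gap to the nearest normal divided by the range of the 4. None is one of the 7 genes, and chance flags about 1 in 20 groups. Normal C stood apart for ANPEP (0.66, the others 1.14 to 1.23), BPIFA1 (3.49, the others 4.04 to 4.15), S100A8 (-1.84, the others -1.19 to -1.10) and TEX101 (3.63, the others 4.37 to 4.49). Normal D stood apart for CCR10 (0.78, the others 3.35 to 3.48) and CDH1 (-2.93, the others -1.83 to -1.69). For CDH1 all 29 tumors remained above every normal.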

How the results depend on the processing

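Apart from SPDEF, the differences between tumors and normals kept their direction when any normal was left out, with other filters and without the trend. The SPDEF difference of 0.09 ran from -0.22 (without normal D) and -0.10 (without normal C) to 0.44 (without normal B), and was -0.20 with DESeq scaling, where ADGRF1 moved to 4.32, by more than the SD of its normals. List genes numbered 54 to 63 higher and 42 to 45 lower when 1 normal was left out, with the fewest higher without normal D, and 81 and 50 without a fold-change threshold. Partner pairs past the threshold went from 0 by rho to 3 by Pearson's r. In the 18 tumors whose titles start with a number, 1 of 14 subtype comparisons (TSPAN8 with the luminal minus basal score, rho = -0.69) and 1 of 53 neighbour pairs passed, and in the other 11 tumors 0 neighbour pairs did, with rho at 0.60 or more for both pairs in either group; fewer tumors enter these. No pair of the 7 genes passed in any alternative, including those without tumor 20 or tumor 7_733858, the tumor most like another (Pearson's r = 0.57 across genes with tumor 7). Of the named list genes, 22 alternative values lost the call, 652 kept it and none reversed. No paired analysis was possible because the tumors and the normals came from different dogs. With 4 normals, 1 library can decide a call near the threshold, and for weakly covered genes such as SPDEF the worth of 1 read pair limits each value.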
